A study of Solanum lycopersicum with 32 samples.

Results

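Florigen is the mobile flowering signal of plants, a small protein of the FT family that is made in leaves, moves through the phloem and acts with 14-3-3 and bZIP partners in the nucleus. In tomato it is made from SINGLE FLOWER TRUSS (SFT), and sft mutants flower late and form abnormal inflorescences. Its best known transcriptional targets are MADS-box genes of the FRUITFULL (FUL) clade, which promote the reproductive state of shoots. The series title places florigen in the stem as well, in the building of secondary cell walls.

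The comparison described here set 2 libraries of tomato (Solanum lycopersicum) stems labelled pSFT-SFT against 2 libraries of sft mutant stems, 4 of the 32 RNA-seq libraries in the series, chosen by their labels as both ends of the florigen range. By its name pSFT-SFT is SFT under an SFT promoter, although the titles call these libraries pTFT, and the libraries titled sft carry the genotype entry SFT. The sources used here give neither the line, nor the number of transgenic events, nor the cultivar, and name no allele that the groups share. Both libraries of wild-type (WT) stems in the same experiment served as a reference point between the ends and shared the estimate of the spread. The protocol describes independent stem samples of 5 mid-internode segments, taken in duplicate 2 h after dawn from plants of like appearance. It does not say whether duplicates were different plants, and the p-values reflect the scatter of libraries, which may be technical. In such bulk samples fewer cells of a type and less RNA per cell cannot be told apart. The 6 libraries of the experiment held 28134280 to 41017105 counts, and 3 reads, the limit that a count of 0 allows, stood for 0.0737 to 0.106 CPM (read counts scaled to a common library total). That limit covers counting error only. The identifiers of the files are not paired with gene names, so the stem label was not checked against tissue markers. Names are given below for 5 genes that published knowledge ties to identifiers. For SFT and FUL2 the transgenes bear on that tie: SFT was read 1650 and 1719 times in 35S:SFT stems of another experiment and 0 times in both of its WT libraries, and FUL2 stood at 1313 ± 229 CPM (SD, n = 2) in 35S:TFUL2 stems against 3.45 ± 1.55 CPM there.

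SFT itself (Solyc03g063100) went against the pSFT-SFT label. It stood at 1.04 and 1.24 CPM in the libraries labelled pSFT-SFT, at 2.80 and 2.21 CPM in WT and at 2.59 and 2.25 CPM in sft. Both libraries labelled pSFT-SFT were below each of the other 4, and WT and sft overlapped. The difference from sft was log2 -1.09 (SE 0.24, adjusted p = 0.025, edgeR's quasi-likelihood test with Benjamini-Hochberg adjustment over all genes, as throughout), a call lost on leaving out either replicate of pSFT-SFT or of sft, with edgeR's adjusted p at 0.0655 to 0.119. In stem RNA the pSFT-SFT label was thus not borne out. The SFT transcript in leaves was not measured, and the sft allele need not alter the transcript level, so these values settle neither label. Below, pSFT-SFT stands for the libraries so labelled.

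All 4 genes of the FUL clade were higher in the libraries labelled pSFT-SFT than in sft stems, with no overlap, as was seen in either direction at 62.4% of all genes tested. FUL1 (Solyc06g069430, MADS-box) stood at 44.8 and 58.0 CPM in pSFT-SFT, 3.76 and 3.56 CPM in WT, and 0.977 and 1.08 CPM in sft. FUL2 (Solyc03g114830, its close relative) stood at 15.4 and 19.7 CPM, 1.74 and 1.61 CPM, and 0.396 and 0.490 CPM in the same order of groups. Both thus formed 3 separate steps, with WT nearer to sft than to pSFT-SFT on the log scale. Between the ends the rise of FUL1 was log2 5.64 (SE 0.18, adjusted p = 9.1e-05). That of FUL2 was log2 5.30 (SE 0.22, adjusted p = 0.00018). MBP10 (Solyc02g065730, a more distant clade member) showed the same 3 steps at lower levels, with 5.08 and 4.25 CPM in pSFT-SFT, 0.688 and 0.657 CPM in WT, and 0.290 and 0.229 CPM in sft (log2 4.14, SE 0.27, adjusted p = 0.00050). MBP20 (Solyc02g089210), in tomato a clade member known for roles in leaf and inflorescence development, was read 34 and 37 times in pSFT-SFT, 1 and 2 times in WT, and 1 and 1 times in sft (adjusted p = 0.0022). Its ratio of read rates between the ends was 40.5, with an exact 95% interval of 10.8 to 341 that covers counting error only, and WT did not stand apart from sft for this gene.

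**Figure D1:**
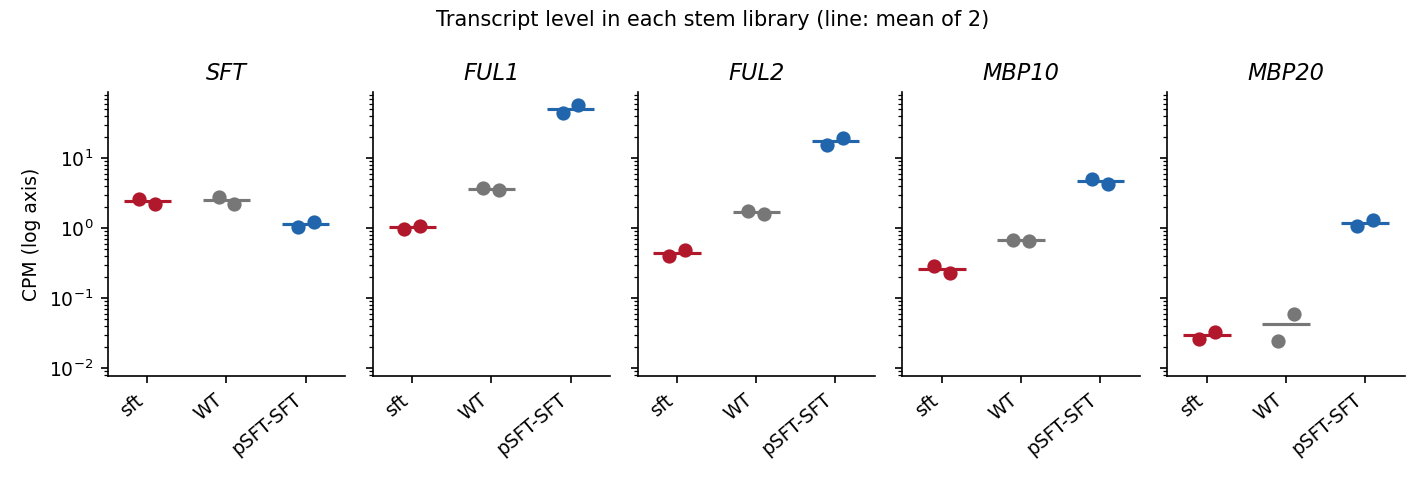
Transcript level of SFT and 4 FUL-clade genes in CPM on a log axis, 1 point per library with the mean of 2 as a line, for sft, WT and the libraries labelled pSFT-SFT. FUL1, FUL2 and MBP10 climb in 3 steps from sft over WT to pSFT-SFT, MBP20 stands out in pSFT-SFT alone, and SFT is lower there (1.04 and 1.24 CPM).

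On the log2 scale, WT lay 0.32 of the way from sft to pSFT-SFT for FUL1, 0.35 for FUL2, 0.31 for MBP10 and 0.045 for MBP20. In the fit, which called 17.8% of genes between pSFT-SFT and WT, the step from WT to pSFT-SFT was log2 3.81 for FUL1 (adjusted p = 0.00019), 3.38 for FUL2 (adjusted p = 0.00033) and 2.79 for MBP10 (adjusted p = 0.0014), and sft stood below WT by log2 -1.83 (adjusted p = 0.077), -1.93 (adjusted p = 0.13) and -1.35 (adjusted p = 0.58). These steps share libraries, so they do not bear one another out. Among all 21141 genes tested, FUL1 ranked 7 and FUL2 ranked 17 by p, and 85 and 91 by the size of the rise. MBP10 and MBP20 ranked 102 and 337 by p, and 120 and 96 by the size of the rise.

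Across the transcriptome 4092 of 21141 genes tested were called (adjusted p under 0.05), a share of 19.4%, with 2173 higher in pSFT-SFT (10.3%) and 1919 lower (9.08%). Changes of 2-fold or more made up 1827 of them (8.64% of genes tested), 998 higher and 829 lower, and 1245 were smaller than 1.5-fold. The median called rise was log2 0.90 and the median called fall log2 -0.85, where the median of all genes tested was log2 -0.01. Genes called higher held 17.1% and 15.9% of all counts in the libraries labelled pSFT-SFT against 9.28% and 9.68% in sft, with WT at 10.5% and 9.86%. Genes called lower held 8.45% and 8.48% in pSFT-SFT against 13.8% and 13.9% in sft, with WT at 13.1% and 13.5%. The direction of these differences between the ends follows from how the genes were chosen, so only their size is described. The share called was 17.9% to 20.9% in the 5 lower bands of expression and 25.5% above a log2 CPM of 8. The counts rested on single libraries: without replicate 1 or 2 of pSFT-SFT edgeR called 2200 or 2501 genes, and without replicate 1 or 2 of sft 1895 or 2027.

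**Figure D2:**
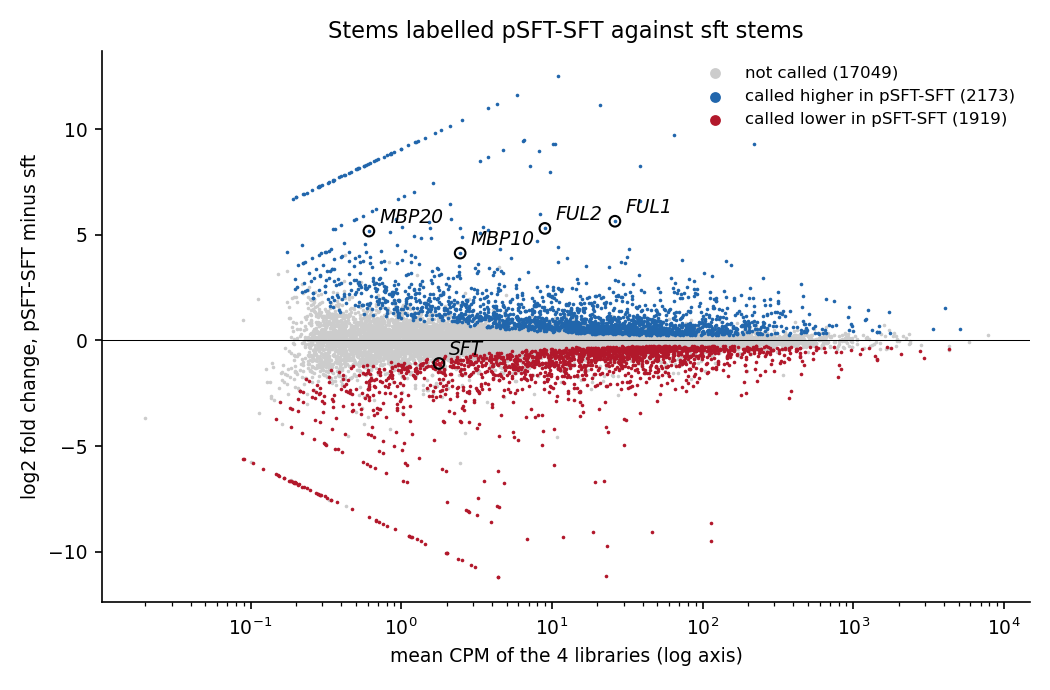
Log2 fold change of pSFT-SFT minus sft against the mean CPM of the 4 libraries (log axis), 1 point per gene tested, with called genes in colour and 5 genes circled. Called genes lie on both sides, 2173 higher and 1919 lower. The straight diagonal edges are genes with 0 reads at one end.

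WT stood close to the sft end. Its position was scored on the log2 CPM scale as 0 at the sft mean and 1 at the pSFT-SFT mean, so the sft libraries enter both the score and the calls, and the score is given as a description. The median position was 0.14 for genes called higher (quartiles 0 and 0.27) and 0.078 for genes called lower (quartiles -0.056 and 0.23). Single libraries moved these medians: the WT libraries taken alone gave 0.184 and 0.0980 for genes called higher, and 0.104 and 0.0480 for those called lower. Without sft replicate 2 the median for genes called higher was 0.218, and for those called lower it was 0.032 without pSFT-SFT replicate 1 and 0.133 without sft replicate 1. WT was nearer to sft than to pSFT-SFT at 2020 of the 2173 genes called higher and at 1818 of the 1919 called lower. The libraries correlated accordingly over the 21141 genes: r was 0.985 to 0.991 between sft and WT libraries, 0.988 to 0.991 between libraries of 1 group, and 0.939 to 0.952 between the libraries labelled pSFT-SFT and those of WT or sft. Genes are not independent replicates. The test of sft against WT called 12 genes (0.0568%).

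The position was not uniform. At 746 genes called higher and 588 called lower, FUL1, FUL2 and MBP10 among them, both WT libraries lay between both libraries of each end without overlap. At 1224 and 1089 others, MBP20 among them, the WT libraries overlapped those of sft and not those of pSFT-SFT, and at 160 and 215 they lay beyond sft. Over all genes tested, called or not, the graded orders were the most frequent complete orders of the 3 groups: 1113 genes had sft lowest, WT in the middle and pSFT-SFT highest, and 1001 the reverse. The orders with sft in the middle held 701 and 803 genes, and those with pSFT-SFT in the middle 94 and 98.

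**Figure D3:**
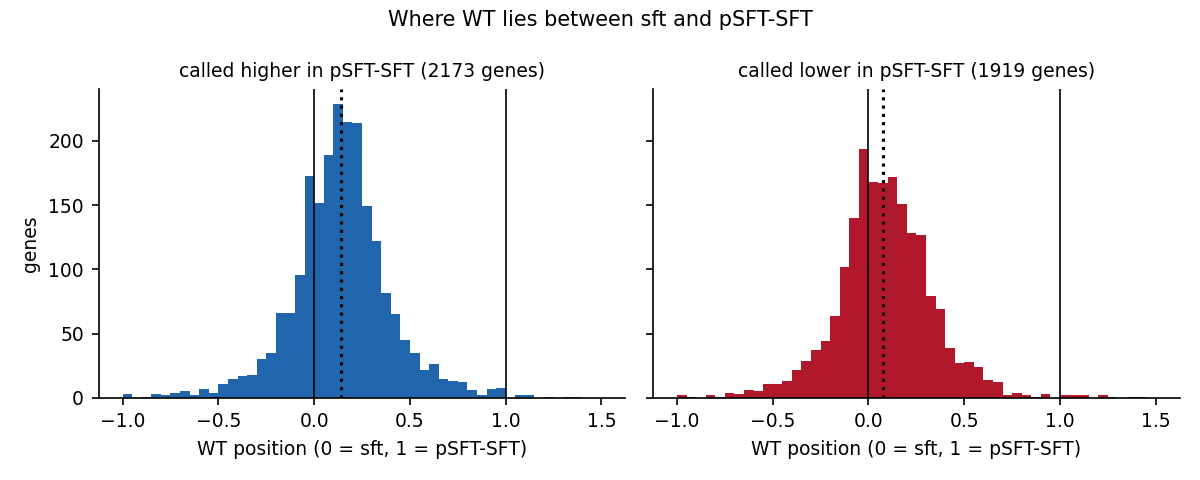
Position of WT on the log2 scale between sft (0) and pSFT-SFT (1) for the 2173 genes called higher and the 1919 called lower, as numbers of genes per step; values beyond the axis are placed in the end steps and the dotted line is the median. Both distributions sit near 0, with medians of 0.14 and 0.078.

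The called genes were then read in 3 other florigen comparisons of the series, none of which shares a library with this one: heated sft plants carrying pHS:FT (by its name, FT under a heat-shock promoter) against heated sft plants that lacked it, sft plants grafted with a 35S:SFT donor against sft//sft grafts, and ungrafted 35S:SFT against WT stems of the FUL experiment. The 35S promoter is active in most plant tissues. A title of the sft//sft grafts names a wt partner in place of the second sft, so their donor is unsettled. Genes called higher in pSFT-SFT were mostly higher in the other comparisons too. With the heat-inducible FT, 1543 of the 1969 that could be tested there were higher (78.4%, against 49.5% of all genes tested in both), with a median of log2 0.33. In the grafts 1442 of 2049 were higher (70.4%, against 49.0%, median log2 0.12), and in 35S:SFT stems 1237 of 2085 (59.3%, against 50.1%, median log2 0.08). Genes called lower were lower at 1279 of 1871 with the heat-inducible FT (68.4%, against 50.5%), 1237 of 1899 in the grafts (65.1%, against 51.0%) and 1233 of 1837 in 35S:SFT stems (67.1%, against 49.8%). The median changes of these genes were log2 -0.14, -0.08 and -0.19. In all 3 comparisons together, 722 of 1936 genes called higher were higher each time (37.3%, where 15.3% of 19977 genes were) and 571 of 1804 called lower were lower each time (31.7%, where 16.1% were). These shares are descriptions over genes, which are not independent and had to pass the filter on low counts in the other experiment too, and the size of change differed between experiments.

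Most genes called higher in the heat-shock comparison were called higher here too. There edgeR called 491 of 20546 genes (2.39%), 413 higher (2.01%) and 78 lower (0.38%). Of the 406 higher ones that could be tested here, 285 (70.2%) were also called higher in pSFT-SFT, and 13 were called lower. Over all genes tested here, 10.3% were called higher and 9.08% lower. The 285 made up 14.5% of the 1969 genes called higher here that could be tested there. The median rise of the 406 was log2 1.37 with the heat-inducible FT and log2 1.05 here. Of 77 called lower there, 38 were called lower here and 0 higher. In 35S:SFT against WT stems 370 of 21312 genes were called (1.74%), 0.793% higher and 0.943% lower; 63 of 156 higher ones and 79 of 197 lower ones were called the same way here, and 16 and 23 the opposite way. The grafts gave 0 edgeR calls of 21566 genes (0%), with 1066 at an unadjusted p under 0.05. That limit passes a share of about 0.05 where no gene differs, so the 1066 are not read as a result. At the same limit the heat-shock comparison had 3594 of 20546 genes and 35S:SFT against WT 4424 of 21312. The graft fit took its spread from all graft groups, among them the 35S:SFT//sp libraries, which differed from each other (see Other observations). A graft fit without them was not run.

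FUL1 and FUL2 stood higher in each of the 3, with FUL2 called in 2 of them and FUL1 in 1. FUL2 was higher by log2 3.30 with the heat-inducible FT (SE 0.61, adjusted p = 0.038), by log2 3.56 in the grafts (SE 0.31, adjusted p = 0.067) and by log2 3.25 in 35S:SFT stems (SE 0.29, adjusted p = 0.014). FUL1 differed by log2 3.35 (SE 0.95, adjusted p = 0.13), 3.04 (SE 0.36, adjusted p = 0.18) and 1.93 (SE 0.12, adjusted p = 0.0080). None of these differences was as large as the one between pSFT-SFT and sft, although the difference between experiments was not tested.

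**Figure D4:**
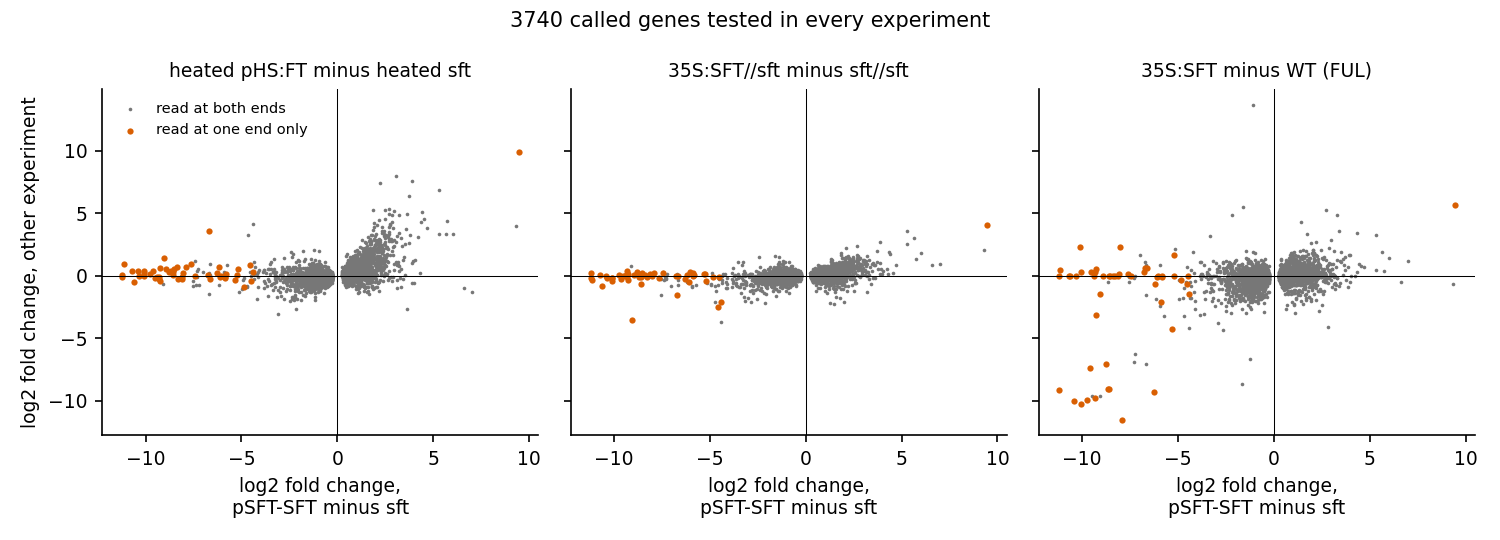
Log2 fold change in 3 other florigen comparisons against that of pSFT-SFT minus sft, 1 point per gene, for the 3740 called genes tested in all of them; the 51 genes read at one end only are orange. Grey points run from lower left to upper right in the heat-shock and graft panels, while most orange points lie along the line of no change there. In the FUL panel some orange points are far below it. Only 1 of the 50 genes read in pSFT-SFT and not in sft passed the low-count filter of the heat-shock comparison, so nearly all orange points are falls.

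The largest differences had another pattern across the series. Leaving aside genes under a mean log2 CPM of 2, the largest called rise was that of Solyc09g007940 (chromosome 9 by its identifier), at 132 and 126 CPM in pSFT-SFT against 0.132 and 0.163 CPM of sft (log2 9.75, SE 0.25, adjusted p = 2.7e-05), with WT at 0.221 and 0.0598 CPM. It was at 21.3 ± 6.56 CPM (SD, n = 2) in 35S:SFT stems, at 37.7 and 0.149 CPM in the 2 libraries of 35S:SFT//sp grafts, and at no more than 0.316 CPM in any other library. Solyc02g084800 stood at 486 and 393 CPM in pSFT-SFT against 0.634 and 0.752 CPM in sft (log2 9.31, SE 0.22, adjusted p = 2.0e-05). It also reached 428 and 291 CPM in WT of the FUL experiment, where WT of the overexpression experiment held 0.712 and 1.05 CPM. In 35S:SFT stems it stood at 219 and 231 CPM and in 35S:GinFT stems at 115 and 123 CPM. In 35S:TFUL2 stems it stood at 3.67 and 1.89 CPM, and no library of the remaining groups was above 3.67 CPM. Of the falls, Solyc11g028100 stood at 0.410 and 0.213 CPM in pSFT-SFT and 223 and 234 CPM in those of sft (log2 -9.48, SE 0.18, adjusted p = 9.7e-06). It was at 0.194 and 0.418 CPM in 35S:SFT stems and at 161 CPM or more in all libraries of the other groups. Solyc05g053060 stood at 0.189 and 0.142 CPM against 119 and 66.3 CPM in sft (log2 -9.08, SE 0.45, adjusted p = 0.00027), was read 0 and 3 times in 35S:SFT stems, and 360 times or more in every library of the other groups.

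Genes read at one end only were counted by a fixed limit, at most 3 reads in each library of one group and at least 1 CPM in each of the other. There were 50 such genes read in pSFT-SFT, MBP20 among them, and 57 read in sft, on 12 chromosome numbers each (unplaced identifiers counted as 1). Their spread over the chromosomes was not tested, and the fullest chromosome of each set is given. Chromosome 11 held 11 of the 57, the most of any, and 1446 of the 21141 genes tested. Chromosome 12 held 8 of the 50, the most of any, and 1388 of the genes tested. All of the 50 and 56 of the 57 were called, where 19.4% of all genes tested were. The limit was set on the same libraries and all but fixes these calls, so they are not a further result. Of the 57, 21 had another member of their set within 50 units of the identifier number on the chromosome, as had 9 of the 50. Such neighbours were not counted for other genes. WT of the same experiment stood mostly with sft: 41 of the 50 were not read there and 46 of the 57 were. Other groups did not follow the florigen label. Of the 50, 29 were read in WT of the FUL experiment, 31 in 35S:SFT and 30 in 35S:GinFT (a Ginkgo FT gene by its name), but 3 in 35S:TFUL2, at most 3 in any graft group and at most 1 in any heat-shock group. Of the 57, 37 were not read in 35S:SFT, 21 not in WT of the FUL experiment and 22 not in 35S:GinFT, against at most 2 in each remaining group apart from pSFT-SFT. The libraries labelled pSFT-SFT thus differed from sft, and from WT of their own experiment, at genes whose state varied between groups of like florigen label. An effect of florigen and any other difference between these plants cannot be told apart in this comparison. In the heat-shock comparison, heated pHS:FT and heated sft stems held 1 and 0 of the 50, and 49 and 50 of the 57.

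**Figure D5:**
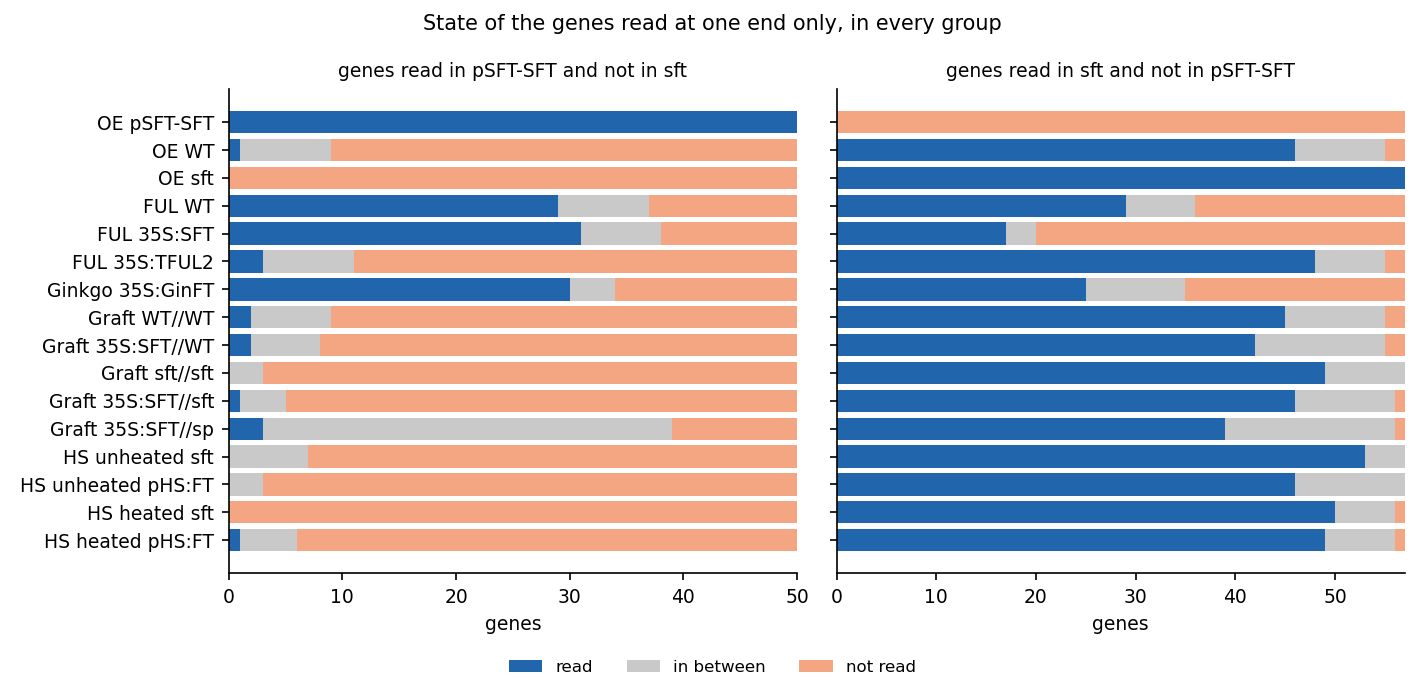
Number of genes read (at least 1 CPM in both libraries), not read (at most 3 reads in both) or in between, in each of the 16 groups, for the 50 genes read in pSFT-SFT and not in sft and the 57 of the reverse. Among the 50, FUL WT, 35S:SFT and 35S:GinFT share many states with pSFT-SFT (29 to 31 read). Of the 57, 37 are not read in 35S:SFT, 21 in FUL WT and 22 in 35S:GinFT. In both sets 35S:TFUL2, the heat-shock groups and most grafts stand with sft.

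Rises larger than that of FUL1 were seen at 84 genes, 44 of them read at one end only, and falls of that size at 96 genes, 48 of them read at one end only. Only 7 of the 84 had enough reads for the heat-shock comparison, against 81 of the 96. A gene near 0 in sft plants enters that comparison mainly through libraries in which it is high, so the direction of strong rises there is shaped by the filter on low counts and is not read as support. The same holds for genes called higher by 4-fold or more, of which 235 of 420 could be tested and 203 were higher (86.4%). Of those called lower by 4-fold or more, 302 of 342 could be tested with the heat-inducible FT and 175 were lower (57.9%), below the share of all genes called lower. The grafts did not show that: 231 of 324 were lower (71.3%). In 35S:SFT stems 60.6% of those tested were lower. Without the genes read at one end only, the shares for all called genes in the heat-shock comparison were 78.4% and 69.1%.

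Solyc03g019710, a gene read at one end only, was singled out after its values were seen, for being higher in all 3 other comparisons. It was read 56 and 96 times in pSFT-SFT, 4 and 1 times in WT and 0 times in both sft libraries (adjusted p = 0.0043). By the mean of the pSFT-SFT libraries (1.77 and 3.40 CPM) it was 29.1-fold above the level of 3 reads per sft library. It was read 67 and 123 times in heated pHS:FT and 0 times in both heated sft libraries (adjusted p = 0.030), and 52 and 63 times in 35S:SFT against 0 and 2 times in WT (adjusted p = 0.037). In these experiments it passed the filter on low counts only through the heated pHS:FT and the 35S:SFT libraries. The adjusted p-values do not account for how the gene was chosen, and its rises are not read as support. In the grafts it stood at 4.70 and 1.89 CPM with the 35S:SFT donor, while sft//sft grafts held 0.358 and 0 CPM (log2 4.04, SE 0.85, adjusted p = 0.68). In 35S:GinFT stems, which also carry an FT transgene by name, it was read 0 and 3 times, and in 35S:TFUL2 stems 0 and 2 times.

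By the chromosome in the identifier, called genes made up 16.6% (chromosome 8) to 22.9% (chromosome 5) of those tested on the 12 chromosomes. In 412 runs of 50 tested genes in identifier order, the median share called was 18%, the lowest 2% and the highest 46%, the last in run 8 of 29 on chromosome 11 and run 31 of 45 on chromosome 3. For changes of 2-fold or more the median was 8%, and the highest was 30% in run 16 of 29 on chromosome 5, followed by 26% in run 17 of that chromosome and in runs 14 and 15 of chromosome 11. Genes read at one end only numbered 3 and 2 in these runs of chromosome 5, and 6 and 4 in those of chromosome 11.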

How the data were processed

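Both tables were deposited by the authors as whole-number counts of reads per gene, with no normalization. The submitters' processing notes name HTSeq 0.6.1, TopHat2 2.1.0, Bowtie2 2.2.6, FastQC 0.11.5 and Trim Galore; the sources used here give no settings, strand handling or build. Single reads of 50 bp can be shared by near-identical genes and by overlapping or antisense genes, whose counts are uncertain. All 32 columns matched 1 sample each and 0 were left unused.

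The main test was edgeR 4.0.16 in R 4.3.3 (two-sided quasi-likelihood test by glmQLFit and glmQLFTest), after filterByExpr (minimum count 10, minimum total 15) and TMM scaling, on the 6 libraries of the overexpression experiment; the other comparisons were fitted within their own experiments. CPM use TMM-scaled totals, and log2 CPM a prior count of 2. SEs are the fold change over the square root of F. DESeq2 1.42.0 was an alternative. In simulated counts for this contrast (20927 genes), the changed genes were drawn from those with a mean CPM of 2 or more. The procedure called 82% of 100 genes changed 2-fold and 100% of 100 changed 4-fold, with 18 false calls among the unchanged genes. Changes at lower levels, or at as many genes as were called here, were not simulated. Replicate pairs differed by more than sampling noise (chi-square per degree of freedom 18.8 to 23.2).

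Named genes are SFT, the FUL clade, and, from the 3008 called genes without overlap whose mean log2 CPM reached 2, the 2 that rose most and the 2 that fell most. The reference table (assembly SLM_r2.1) matched 0 of 34728 identifiers and has no product names, so the planned lists of wall, lignin, hormone and tissue marker genes were not run. The members and lists were chosen with earlier results of these data known.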

Additional observations from a re-analysis of the deposited data

How the results depend on the processing

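The 4 FUL-clade genes kept their direction and their call in all alternatives run; SFT kept its direction, and its call ended without any 1 of the 4 libraries compared. The counts held within 1.5 times under another scaling, DESeq2 (4358 genes, 3850 of them shared with the 4092), either low-count filter, the fit on 4 libraries (3545 genes) and the replicate block (4571 genes). Leaving out single libraries of the 6 gave 1895 to 3479 called genes, 1217 to 1777 of them 2-fold or more, and a log2 change of SFT of -1.21 to -0.97. The same-numbered libraries of pSFT-SFT and sft deviated together with a correlation of 0.15, that of WT with pSFT-SFT was 0.078, that of sft with WT was 0.246, and no label says that a number marks a shared day or plant, so the block is given here alone. The median WT position ranged from 0.133 to 0.218 for genes called higher and from 0.032 to 0.133 for those called lower when a library of either end was left out. The shares of same direction then ranged, for genes called higher and lower, from 81.1% to 87.3% and 63.6% to 67.6% in the heat-shock comparison, 73.0% to 77.6% and 58.2% to 72.4% in the grafts, and 57.5% to 64.0% and 66.2% to 72.4% in 35S:SFT stems. With changes of 2-fold or more only, they were 81.4% and 62.9% in the heat-shock comparison and 62.1% for genes called higher in 35S:SFT stems, and with DESeq2 size factors 78.1% for genes called higher in the heat-shock comparison. With 0 reads at one end and 2 CPM at the other, genes read at one end only numbered 12 in pSFT-SFT and 15 in sft, since the limit is stricter; the cause of the other shifts was not tested. Alternatives for gene lists were not run, as the lists could not be matched to identifiers.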

Other observations

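Both libraries of the 35S:SFT//sp grafts stood on neither side of the graft comparison, but shared its low-count filter, scaling and estimate of the spread. These libraries differed from each other at the 50 genes read in pSFT-SFT and not in sft. Replicate 1 had more than 3 reads at 37 of them and replicate 2 at 10, while the other graft libraries had 1 to 8. At 11 of the 50, replicate 1 reached 1 CPM, against 3 in replicate 2. Solyc09g007940 stood at 37.7 CPM in replicate 1, between the 0.149 CPM of replicate 2 and the 126 and 132 CPM of the libraries labelled pSFT-SFT. By the sample numbers in the labels, replicate 1 follows on from the replicate 2 libraries of the other grafts and replicate 2 from their replicate 1 libraries. What those numbers stand for is not given, and their part in the difference was not tested. SFT was read 0 times in both WT libraries of the FUL experiment, where WT of the overexpression experiment stood at 2.80 and 2.21 CPM.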
